A study of Homo sapiens with 12 samples.

Results

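The zinc finger (ZNF) genes of chromosome 19 were examined for chromatin regions that were listed after treatment of prostate cancer cells. They were taken as the RefSeq protein-coding genes on chromosome 19 whose symbol is ZNF followed by digits and an optional letter, which gave 246 genes out of 1451 protein-coding genes on the chromosome and 20033 on 24 chromosomes. The cells belonged to a single established line, 22Rv1, from human prostate cancer, and all groups are labelled as genotype WT. They were treated for 6 h with enzalutamide, an antiandrogen, at 1 µM, with OSU-ERb-12, a ligand of oestrogen receptor beta, at 100 nM, or with OSU-ERb-12 plus enzalutamide, for which the samples' own labels give no doses, and there was a vehicle group. There were 3 samples per group, 12 in all, and 1 region list per treatment; values per sample and a list for vehicle were not analysed here. Each list is read here as a treatment set against vehicle, which the labels do not state, and whether a listed region was more or less accessible than in vehicle is not stated, so the results concern where the regions lie. The names of all 3 lists carry the tag neg, which the labels do not define, so a list may hold differences of 1 direction only, and the absence of a region from a list does not show that a site was unaltered.

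ZNF proteins of this kind bind DNA through arrays of C2H2 zinc fingers. Many of those on chromosome 19 also carry a KRAB domain, which recruits the corepressor TRIM28 and, through it, the histone methyltransferase SETDB1 and heterochromatin proteins; transposable elements are their best known targets. The genes arose by repeated duplication, stand in clusters, and typically hold the whole finger array in their last exon, whose chromatin carries histone H3 lysine 9 trimethylation in many cell types. Duplicated genes share sequence. How reads that match several copies were treated is not given in the sources used here, and its part in the counts of ZNF genes was not tested.

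The promoter sequences that carried listed regions of more than 1 treatment are shown first, as sites where lists met. RefSeq windows of 250 bases before to 50 bases after a transcript start were available for 216 of the 246 genes, with 268 windows in all, of which 41 windows overlapped a region of at least 1 list. The 6 windows below were overlapped by the most lists and then by the most bases. They are written 5′ to 3′ on the strand of the gene, and capitals mark matches on either strand to the SP1 motif GGGCGG, the ETS motif CCGGAA, the CRE motif TGACGTCA, the NRF1 motif GCGCATGC, the YY1 motif AAGATGGCG or the CCAAT box, the last added after the sequences had been seen.
ZNF20 (chr19:12140301-12140600, GRCh38.p14, minus strand): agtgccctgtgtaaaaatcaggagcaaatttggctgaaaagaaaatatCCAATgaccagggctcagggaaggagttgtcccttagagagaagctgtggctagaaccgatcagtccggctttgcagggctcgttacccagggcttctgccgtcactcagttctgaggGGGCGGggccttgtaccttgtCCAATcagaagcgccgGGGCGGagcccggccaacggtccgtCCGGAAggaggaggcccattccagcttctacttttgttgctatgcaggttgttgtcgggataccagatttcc
ZNF69 (chr19:11887532-11887831, GRCh38.p14, plus strand): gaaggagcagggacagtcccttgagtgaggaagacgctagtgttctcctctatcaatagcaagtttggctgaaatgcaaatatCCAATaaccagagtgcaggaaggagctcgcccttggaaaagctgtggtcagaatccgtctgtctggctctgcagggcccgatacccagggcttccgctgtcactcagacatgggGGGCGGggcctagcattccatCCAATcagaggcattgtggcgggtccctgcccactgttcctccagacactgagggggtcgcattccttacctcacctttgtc
ZNF565 (chr19:36214616-36214915, GRCh38.p14, minus strand): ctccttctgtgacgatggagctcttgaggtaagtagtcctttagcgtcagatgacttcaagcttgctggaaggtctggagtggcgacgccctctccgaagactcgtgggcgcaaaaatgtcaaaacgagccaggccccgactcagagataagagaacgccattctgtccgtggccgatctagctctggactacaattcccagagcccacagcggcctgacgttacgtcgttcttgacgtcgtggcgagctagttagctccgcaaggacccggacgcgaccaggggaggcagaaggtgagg
ZNF181 (chr19:34733993-34734292, GRCh38.p14, plus strand): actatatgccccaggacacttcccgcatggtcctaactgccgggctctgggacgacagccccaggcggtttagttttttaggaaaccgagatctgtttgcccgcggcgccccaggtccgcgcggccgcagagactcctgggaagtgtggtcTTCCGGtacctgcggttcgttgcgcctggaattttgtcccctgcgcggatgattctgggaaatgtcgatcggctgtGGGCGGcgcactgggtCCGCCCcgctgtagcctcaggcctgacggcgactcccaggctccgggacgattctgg
ZNF564 (chr19:12551433-12551732, GRCh38.p14, minus strand): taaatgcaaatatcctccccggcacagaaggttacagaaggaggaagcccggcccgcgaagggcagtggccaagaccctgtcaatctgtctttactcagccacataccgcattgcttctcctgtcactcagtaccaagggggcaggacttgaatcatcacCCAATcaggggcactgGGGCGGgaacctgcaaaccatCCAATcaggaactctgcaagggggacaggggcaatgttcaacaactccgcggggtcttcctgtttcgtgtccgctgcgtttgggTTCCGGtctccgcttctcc
ZNF146 (chr19:36214856-36215155, GRCh38.p14, plus strand): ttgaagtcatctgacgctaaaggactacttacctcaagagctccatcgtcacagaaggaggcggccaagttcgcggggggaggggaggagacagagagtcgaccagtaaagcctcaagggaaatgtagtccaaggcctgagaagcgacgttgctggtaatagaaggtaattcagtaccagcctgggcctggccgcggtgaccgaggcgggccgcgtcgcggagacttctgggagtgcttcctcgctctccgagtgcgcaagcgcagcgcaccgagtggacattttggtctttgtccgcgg

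The ZNF20 window was overlapped by a region of all 3 lists, the enzalutamide region at 12140501 to 12140750, the OSU-ERb-12 region at 12140401 to 12140700 and the combination region, from the list for both agents, at 12140401 to 12140600. ZNF69 and ZNF564, which lie in the same cluster as ZNF20, had an enzalutamide and a combination region in the window. In ZNF69 both began at 11887551, and in ZNF564 they began at 12551651 for enzalutamide and 12551701 for the combination. The window of ZNF20 was identical to that of ZNF69 at 203 of 251 aligned bases (80.9%), the closest pair of the 6. The other pairs were identical at 67.0% to 78.5% of their aligned bases. ZNF565 and ZNF564, which lie in different clusters, reached 77.7%, but over only 139 aligned bases. As a share of the whole window, identical bases made up 67.7% for ZNF20 and ZNF69 and 36.0% for ZNF565 and ZNF564. The remaining pairs ranged from 17.0% to 60.3% of the window, the highest being ZNF20 with ZNF564. ZNF181 also had an enzalutamide and a combination region, which both ended at 34734050. ZNF565 and ZNF146 are transcribed in opposite directions from overlapping windows, and the OSU-ERb-12 and combination regions there were 1 and the same interval, 36214701 to 36214900, with no enzalutamide region; this window of ZNF565 lies inside the annotated gene and not at its end. The ZNF565 and ZNF146 windows held none of the searched motifs. ZNF180, next in the same order and not printed, also had regions of both kinds in its window, where the enzalutamide and the combination list held the identical interval 44500301 to 44500500.

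Of these letters the ETS motif was the one in which ZNF promoters differed most from other promoters. It was present in 137 of the 268 ZNF windows (51.1%), in 110 of 288 windows of ZNF genes on other chromosomes (38.2%), in 277 of 1280 windows of other chromosome 19 genes (21.6%) and in 21.2% of all 22198 windows of protein-coding genes. The CCAAT box was present in 50.0% of ZNF windows, against 35.6% of other chromosome 19 windows and 34.7% of all windows. SP1 matches did not set the ZNF windows apart from their chromosome, with 64.9% in ZNF windows and 65.9% in other chromosome 19 windows (56.3% of all). NRF1, CRE and YY1 motifs stood in 4.48%, 3.73% and 2.99% of ZNF windows, against 5.0%, 2.97% and 3.59% of other chromosome 19 windows and 3.74%, 2.26% and 2.41% of all windows. Full androgen or oestrogen response elements, as exact inverted repeats, were found in 0 ZNF windows; in all windows they were found in 0 and 8 (0.0360%). Of the 41 ZNF windows that overlapped a region, 21 (51.2%) held the ETS motif. Related copies are counted one by one here, and a match describes the sequence only.

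**Figure D1:**
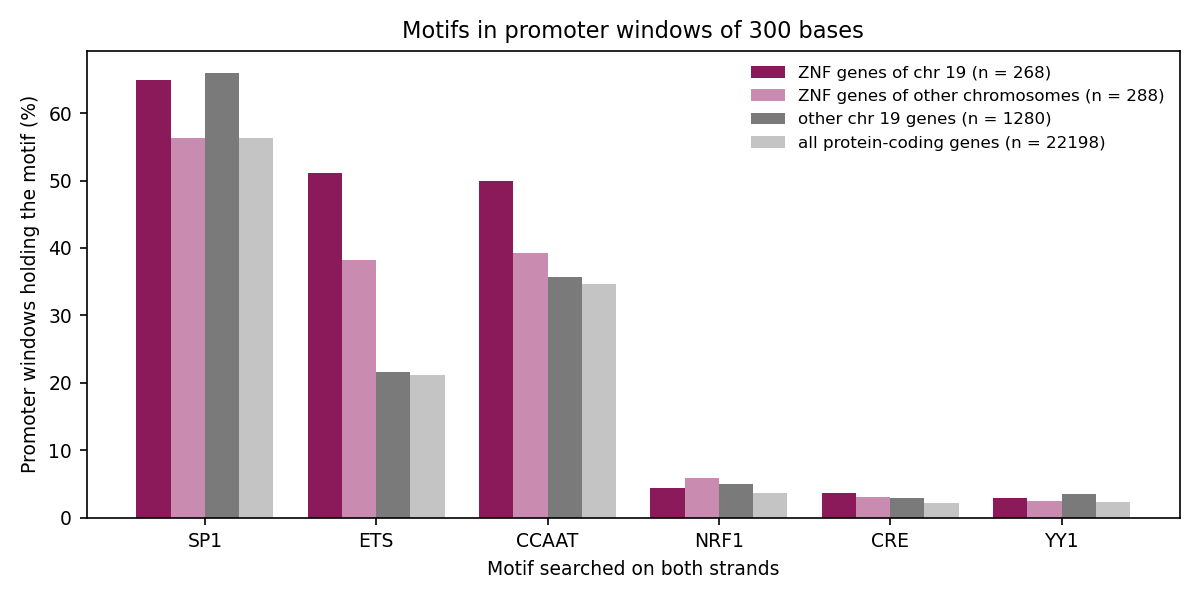
Share of promoter windows (%) that hold each motif on either strand, for ZNF genes of chromosome 19, ZNF genes of other chromosomes, other chromosome 19 genes and all protein-coding genes. The ETS motif stands in 51.1% of ZNF windows against 21.6% of other chromosome 19 windows, while SP1 stands in 64.9% and 65.9%.

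In all 3 lists a smaller share of ZNF loci than of other loci on the chromosome held a region. A locus means the gene plus 10 kb of flank at each end. An enzalutamide region was present at 111 of 246 ZNF loci (45.1%, exact 95% interval 38.8 to 51.6), where the share over all protein-coding genes was 58.3%. An OSU-ERb-12 region was present at 69 (28.0%, 22.5 to 34.1; 39.2% over all genes) and a combination region at 31 (12.6%, 8.73 to 17.4; 21.7% over all genes). The lists contain 25317, 17931 and 6248 regions, of which 932, 557 and 248 lie on chromosome 19, so the shares are to be compared within a list.

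ZNF genes are longer than their neighbours, with a median of 23152 bp against 12763 bp for the other 1205 protein-coding genes of the chromosome, and longer loci can hold more regions. With the other genes weighted to the lengths of the ZNF genes, an enzalutamide region stood at 62.8% of their loci, one from the OSU-ERb-12 list at 44.8% and a combination region at 28.6%. The ZNF share minus that of these genes was -17.7, -16.8 and -16.0 percentage points in the same order. The 263 ZNF genes of other chromosomes lay between, with 57.8%, 36.9% and 20.2% without weighting by length. ZNF loci also held fewer other genes, a mean of 0.951 against 1.87, and 37.8% of them held no other protein-coding gene against 13.6%. With weighting by the number of such neighbours as well as by length, the differences were -12.9, -13.5 and -13.6 points. That weighting used fewer bins of length and put larger numbers of neighbours together. The change from the differences above can therefore not be read as that of neighbours alone. The difference was smaller against some other genes: -8.66, -6.30 and -6.68 points against ZNF genes of other chromosomes, and, for enzalutamide, -2.84 against the 91 other genes inside the spans of ZNF clusters. It also moved with the window and the regions kept. With 50 kb of flank it was -6.57 for enzalutamide and -22.8 for the combination, with gene bodies alone -9.10 and -9.67, and with regions of 250 bp or more -10.6 (OSU-ERb-12) and -4.67 (combination).

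In the shortest ZNF genes the share was not lower for enzalutamide and the combination, and only a little lower for OSU-ERb-12. In the fifth of ZNF genes from 2469 to 12930 bp, 30 of 49 loci (61.2%, 46.2 to 74.8) held an enzalutamide region, against 283 of the 513 other chromosome 19 genes in that length range (55.2%). A combination region stood at 24.5% of these ZNF loci (13.3 to 38.9) against 19.3% of the others, and one of the OSU-ERb-12 list at 32.7% (19.9 to 47.5) against 35.5%. The ZNF interval includes the share of the other genes in all 3 lists. In the other length bins ZNF genes had the lower share in every list. In the longest, from 36906 to 487995 bp, the shares were 44.0% against 72.2% for enzalutamide, 38.0% against 63.3% for OSU-ERb-12 and 18.0% against 34.4% for the combination.

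At gene ends, within 1 kb, the ZNF share was above that of genes of like length for enzalutamide, close to it for the combination and below it for OSU-ERb-12. Enzalutamide regions lay at an end of 76 ZNF genes (30.9%, 25.2 to 37.1), OSU-ERb-12 regions at 19 (7.72%, 4.71 to 11.8) and combination regions at 15 (6.10%, 3.45 to 9.86). Over all protein-coding genes the shares were 28.3%, 7.88% and 5.51%, and among chromosome 19 genes of like length 27.3%, 10.8% and 5.30%. The ZNF intervals include the share of genes of like length in each list. The comparison depends on the width of the window: for enzalutamide the difference from genes of like length was 8.69 points with 500 bp, 3.58 with 1 kb and -11.6 with 5 kb on either side. For OSU-ERb-12 it was -3.06 with 1 kb and -13.0 with 5 kb, and for the combination 0.801 and -6.29.

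Strand was known for the 216 genes with a promoter entry, so that starts and stops could be told apart for these. An enzalutamide region lay within 1 kb of the start of 66 of them (30.6%, 24.5 to 37.2; 26.5% over all genes with a strand) and within 1 kb of the stop of 4 (1.85%, 0.507 to 4.67; 4.81% over all genes). Among the other chromosome 19 genes the shares were 21.9% at the start and 7.84% at the stop, so starts with a region outnumbered stops by 16.5 to 1 in ZNF genes and by 2.79 to 1 in the others. The 214 ZNF genes of other chromosomes with a strand had 34.1% at the start and 1.87% at the stop. The 4 ZNF genes of chromosome 19 with an enzalutamide region at the stop were ZNF358, ZNF574, ZNF628 and ZNF880, named here because they are so few. The region at the ZNF880 stop, 52397651 to 52397950, also lay across the start of ZNF528. A stop counted here can thus be the start of a neighbour, and the part of this in the ratios was not tested.

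Starts with a region also outnumbered stops in the other lists, on small numbers, by 3.0 to 1 for OSU-ERb-12 and 5.0 to 1 for the combination, against 1.30 to 1 and 2.37 to 1 in the other chromosome 19 genes. OSU-ERb-12 regions lay at the start of 12 ZNF genes (5.56%; 5.94% over all genes) and at the stop of 4 (1.85%; 2.54% over all genes), with 6.30% and 4.85% in the other chromosome 19 genes. Combination regions lay at the start of 10 (4.63%; 4.49% over all genes) and at the stop of 2 (0.926%; 1.32% over all genes), with 4.64% and 1.96% in the others. The promoter windows gave shares of 12.7% for enzalutamide (34 of 268 windows; 9.86% of all windows), 2.24% for OSU-ERb-12 (6 windows; 1.38% of all) and 3.36% for the combination (9 windows; 1.87% of all), where other chromosome 19 windows gave 10.2%, 1.56% and 1.56%.

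**Figure D2:**
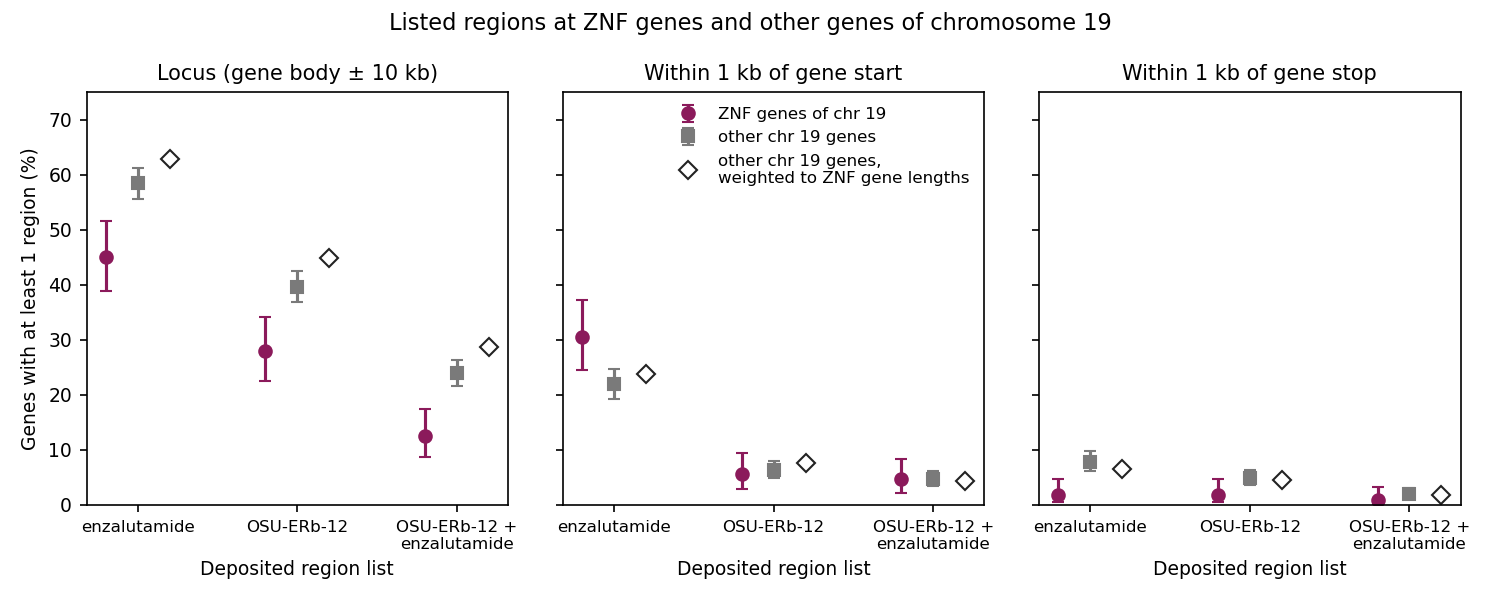
Share of genes (%) with at least 1 region of each list in the locus, within 1 kb of the gene start and within 1 kb of the gene stop. Circles are ZNF genes of chromosome 19 and squares other chromosome 19 genes, with exact 95% intervals, and diamonds are the other genes weighted to ZNF gene lengths. ZNF loci lie below the others in all 3 lists (45.1% against 62.8% for enzalutamide), while at gene starts the enzalutamide share is 30.6% against 23.8%.

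Counted as regions, the ZNF loci together covered 10.4 Mb, 17.7% of the chromosome, and contained 140 enzalutamide, 65 OSU-ERb-12 and 26 combination regions, which were 15.0%, 11.7% and 10.5% of those on the chromosome. The densities were 13.5 enzalutamide regions per Mb in ZNF loci (exact Poisson 95% interval 11.4 to 16.0) against 16.4 in the rest of the chromosome (15.3 to 17.6), 6.28 OSU-ERb-12 regions (4.84 to 8.0) against 10.2 (9.33 to 11.2), and 2.51 combination regions (1.64 to 3.68) against 4.61 (4.02 to 5.25). The intervals of the OSU-ERb-12 and combination lists do not overlap, and those of enzalutamide do by a little. Of these regions 26, 16 and 6 lay in more than 1 ZNF locus and were counted once here.

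The regions that lay in ZNF loci sat at ZNF gene ends to different extents. For enzalutamide 81 of 140 did (57.9%, 49.2 to 66.1), for the combination 15 of 26 (57.7%, 36.9 to 76.6) and for OSU-ERb-12 17 of 65 (26.2%, 16.0 to 38.5). Ends of any protein-coding gene took 62.9%, 57.7% and 29.2% of the regions of ZNF loci in the same order, against 36.9%, 27.0% and 20.5% of the regions in the rest of the chromosome. Where the strand of the nearest ZNF gene was known, 67 enzalutamide regions had their midpoint within 1 kb of its start. Their median position was 235 bp downstream of the start, and 24 of the 67 lay within 250 bp of it. In the combination list there were 10, with a median position of -27.5 bp, where negative values lie upstream, and 6 of the 10 lay within 250 bp. Widths did not set these regions apart: the median was 250 bp for enzalutamide and 200 bp for both other lists, in ZNF loci and in the rest of the chromosome.

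**Figure D3:**
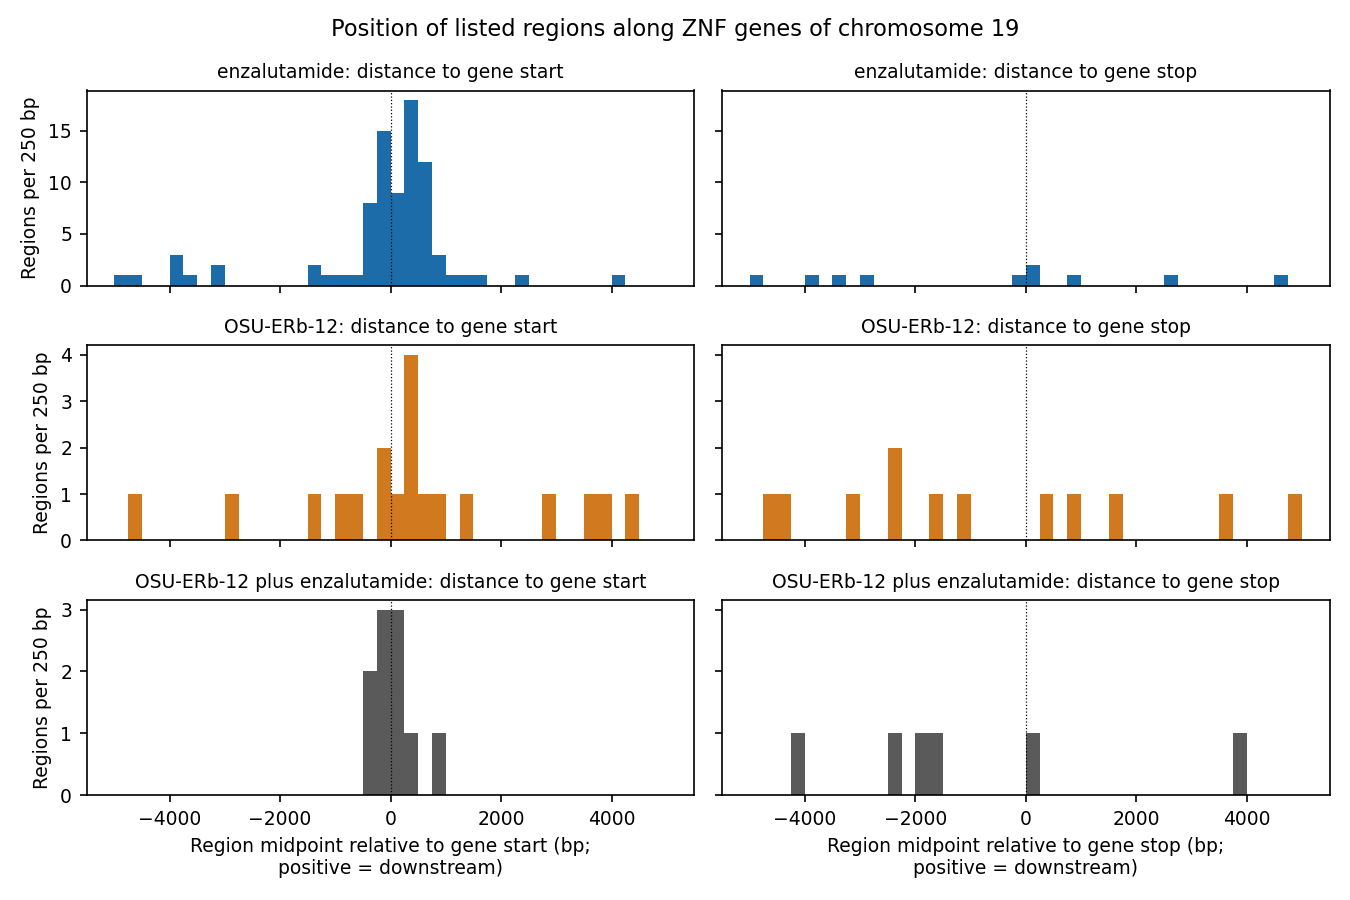
Number of listed regions per 250 bp of distance between region midpoint and the start (left) or stop (right) of the nearest ZNF gene, positive values lying downstream. Each region is placed by 1 gene only, and regions whose nearest ZNF gene has no known strand are left out. Vertical scales differ between lists. Within 1 kb of starts there are 67 enzalutamide, 11 OSU-ERb-12 and 10 combination midpoints, and within 1 kb of stops 4, 2 and 1.

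Along the chromosome 232 of the 246 genes fell into 10 clusters, defined as runs of at least 5 ZNF genes with at most 500 kb between neighbours. The fourth, from 19668153 to 24129968, had the lowest enzalutamide share of the 10. It holds 37 ZNF genes with a median length of 34630 bp and only 2 other genes, and 10 of its ZNF loci (27.0%) held an enzalutamide region, 5 (13.5%) one from the OSU-ERb-12 list and 1 (2.70%) a combination region. Its span of 4.46 Mb had 7.62, 3.36 and 0.896 regions per Mb, against 15.9, 9.51 and 4.24 on the whole chromosome. By density it was not the lowest: the sixth cluster had 6.26 enzalutamide and 1.88 OSU-ERb-12 regions per Mb, and the fifth 6.94 enzalutamide regions, with enzalutamide shares of 42.3% and 40.0% of their ZNF loci.

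The ninth cluster, from 55476617 to 56671757, was at the other end. It has 16 ZNF genes with a median length of 11204 bp and 26 other genes, and 10 ZNF loci (62.5%) held an enzalutamide region, 8 (50.0%) one from the OSU-ERb-12 list and 8 (50.0%) a combination region. Combination regions stood at 10.04 per Mb there, 12 in 1.20 Mb. The fourth and the ninth cluster thus differed in gene length and in the number of other genes as well as in the shares. This relation did not hold through all 10 clusters. The first, with 5 ZNF genes and 0 other genes, had an enzalutamide and an OSU-ERb-12 share of 60.0% each. The tenth, with a median length of 13139 bp and 13 other genes, had an OSU-ERb-12 share of 23.3% and a combination share of 9.30%. The part of gene length and of other genes in the differences was not tested.

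The tenth cluster, the largest with 43 ZNF genes, had the densest enzalutamide regions, 20.03 per Mb, and 46.5% of its ZNF loci held one, while 23.3% held one from the OSU-ERb-12 list and 9.30% a combination region. The eighth, with 39 genes, had 43.6%, 38.5% and 12.8%, the sixth, with 26 genes, 42.3%, 19.2% and 11.5%, the third, with 25 genes, 44.0%, 28.0% and 20.0%, and the seventh, with 23 genes, 43.5%, 13.0% and 4.35%. The enzalutamide shares of these clusters thus lay within 5 percentage points of each other, and the OSU-ERb-12 shares ranged more widely. The second cluster, with 13 genes, had 61.5% and 15.4% and no combination region in a ZNF locus. Of the 14 ZNF genes outside clusters, an enzalutamide region stood at 9, an OSU-ERb-12 region at 10 and a region of the combination list at 3.

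**Figure D4:**
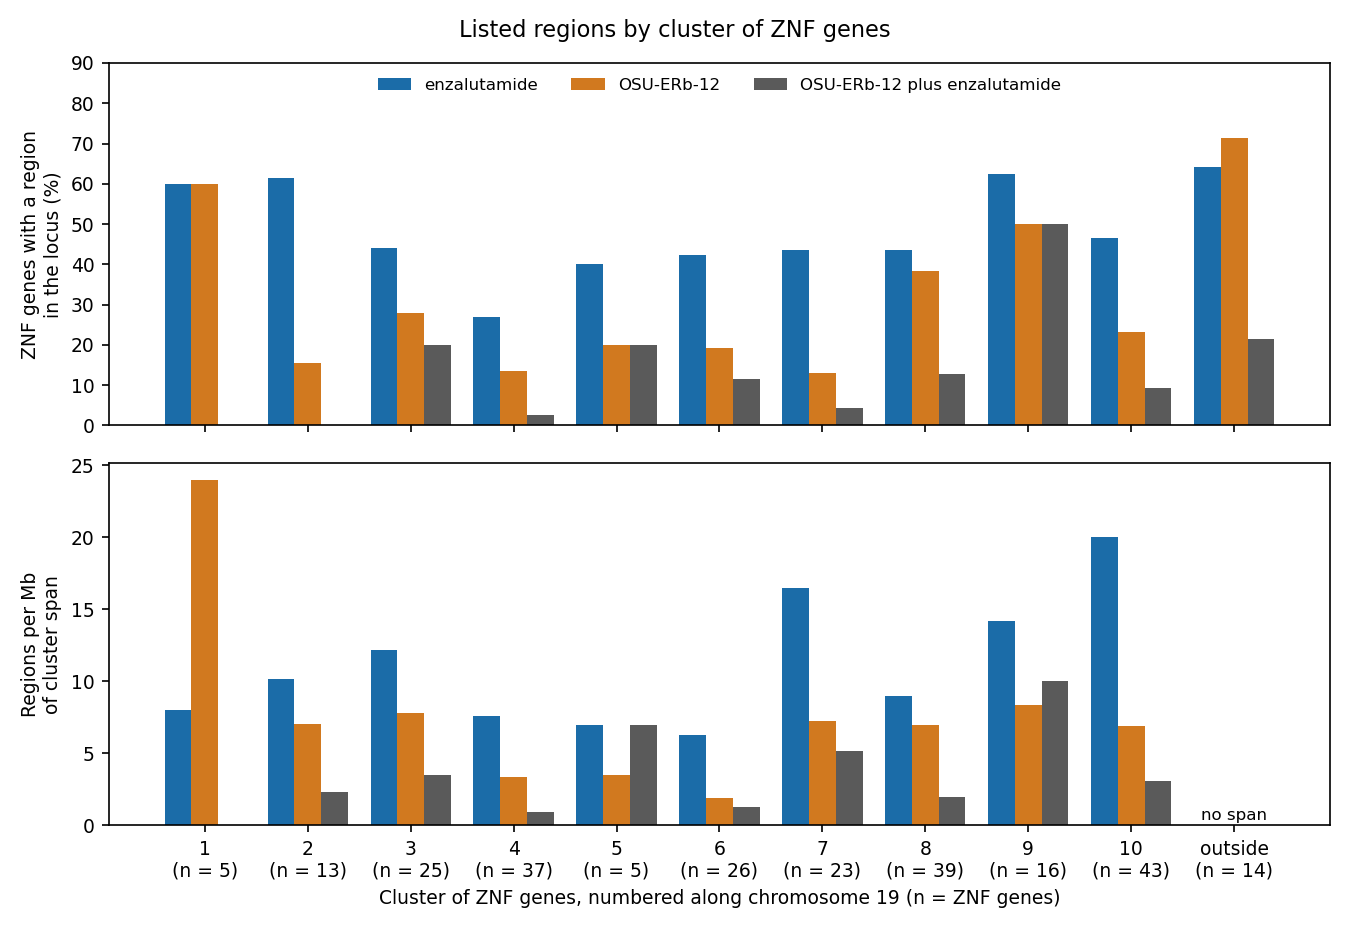
Share of ZNF genes with a region in the locus (top, %) and regions per Mb of cluster span (bottom) for the 10 clusters in order along chromosome 19, and for the 14 ZNF genes outside clusters, which have no span. The fourth cluster is low in all 3 lists (27.0%, 13.5% and 2.70% of its genes) and the ninth is high in the combination list (50.0%); the first and the fifth have 5 genes each.

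Most ZNF loci held few regions. No region of any list was present at 105 of the 246 loci (42.7%), against 27.7% of the other chromosome 19 genes, 83 held regions of 1 list, 46 of 2 lists and 12 of all 3 (4.88%, against 10.6% of the others). The longest locus without a region was that of ZNF254, a KRAB gene of 96520 bp in the fourth cluster, and the shortest that of ZNF524, of 3565 bp in the ninth.

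ZNF536 (30225592 to 30713586), which encodes a repressor of neuronal differentiation and lies outside the clusters, is the longest gene of the group at 487995 bp. It held 4 enzalutamide, 8 OSU-ERb-12 and 1 combination region, all inside the gene and none within 1 kb of its ends. The enzalutamide region at 30696401 to 30696800 and the OSU-ERb-12 region at 30696401 to 30696650 overlapped. No other ZNF locus had more than 3 OSU-ERb-12 regions, and none was as long.

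ZNF628 (55476617 to 55484487), in the ninth cluster, is 7871 bp long and held 5 enzalutamide, 1 OSU-ERb-12 and 2 combination regions, the most enzalutamide and the most combination regions of any ZNF locus. The enzalutamide regions lay 1 before its start, at 55475951 to 55476350, 2 at its stop, which were also within 1 kb of an end of the neighbouring gene NAT14, and 2 further downstream. Regions of all 3 lists began at 55489751, which is 5264 bp beyond the gene and inside SSC5D, a scavenger receptor gene, so this triple overlap belongs to the locus by the window and not to the ZNF gene itself. The region at the stop was shared by enzalutamide (55484401 to 55484750) and the combination (55484551 to 55484750).

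ZNF358 (7513880 to 7521025) held 4 enzalutamide regions, 1 OSU-ERb-12 and 1 combination region, but 2 of the enzalutamide regions and the combination region lay in the neighbour SAXO5. The enzalutamide and OSU-ERb-12 lists shared the interval 7512351 to 7512550, 1330 bp before the start. ZNF324B held 4, 1 and 1 regions over its 39438 bp, and 2 of the enzalutamide regions and the combination region also lay in the overlapping locus of ZNF584, inside that gene. The enzalutamide region at 58440001 to 58440450 sat at the start of ZNF132, a gene inside the span of ZNF324B.

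ZNF846 and ZNF730, both KRAB genes, each held 4 enzalutamide regions and no other region. In ZNF846 they included the widest enzalutamide region of any ZNF locus, 750 bp at the start of the gene (9785551 to 9786300), and in ZNF730 one at the start, one upstream and a pair about 42 kb inside the gene, at 23116651 to 23116850 and 23117351 to 23117650. ZNF730 stands in the fourth cluster, where most loci held nothing.

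For OSU-ERb-12 the loci after ZNF536 were ZNF69 with 3 regions, 2 of them inside its 92441 bp body, and ZNF653, ZNF700, ZNF507 and ZNF541 with 2 each. ZNF653 encodes a repressor of the nuclear receptor SF-1, and ZNF541 a chromatin factor of meiotic germ cells in mice. The loci of ZNF69 and ZNF700 overlap, and the ZNF700 regions were also counted for ZNF69. ZNF507 (32345610 to 32387667) had an enzalutamide region just before its start, at 32345301 to 32345550, a combination region just after it, at 32345851 to 32346100, and both OSU-ERb-12 regions deeper in the gene, so that the lists touched different sites of 1 locus.

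**Figure D5:**
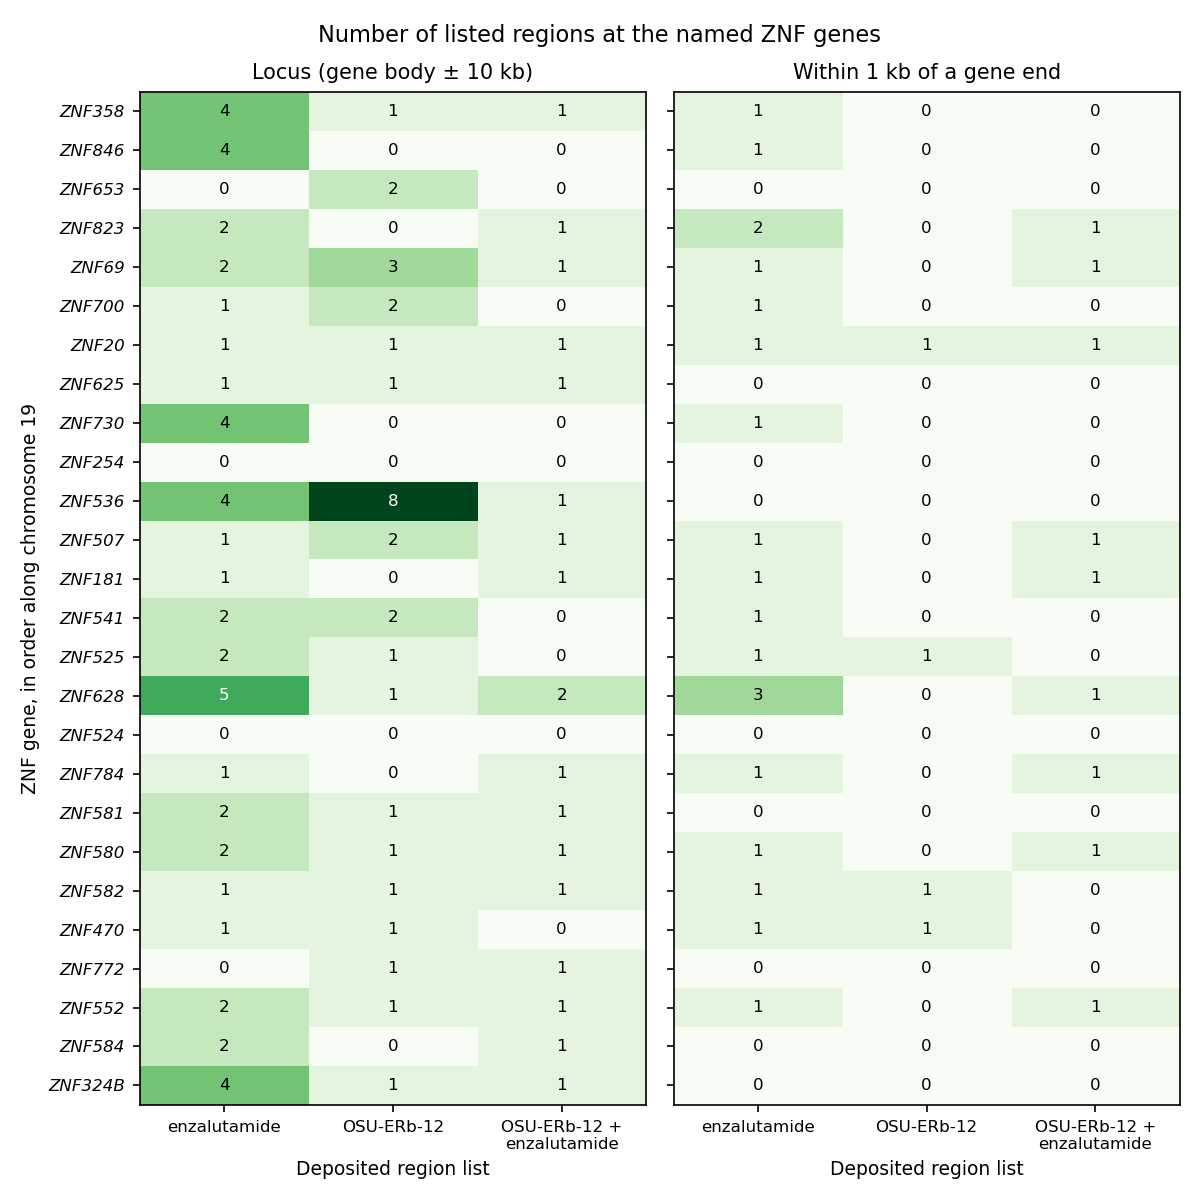
Number of regions of each list in the locus (left) and within 1 kb of a gene end (right) for the ZNF genes named by rule, in order along chromosome 19. ZNF536 has 8 OSU-ERb-12 regions and none at an end, and ZNF628 has 5 enzalutamide regions, 3 of them at an end.

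End regions of more than 1 list were present at 23 ZNF genes, 22 with 2 lists and 1, ZNF20, with all 3. All 3 lists met at 0.407% of ZNF genes against 0.830% of other chromosome 19 genes. Enzalutamide and OSU-ERb-12 alone met at 3.25% against 3.90%. The combination met enzalutamide alone at 11 ZNF genes (4.47%) against 32 of the others (2.66%). It met OSU-ERb-12 alone at 3 ZNF genes (1.22%) against 4 of the others (0.332%), which is too few to compare. Shares of such meetings over all protein-coding genes are not given here, so the counts are not read as a trait of ZNF genes. ZNF20 and the neighbouring ZNF625, whose locus includes the same interval, are counted from the same regions. ZNF823 had 2 enzalutamide regions and 1 combination region at its start, where the enzalutamide region at 11737951 to 11738150 overlapped the combination region at 11737851 to 11738100. ZNF784 and ZNF580 in the ninth cluster each had an enzalutamide and a combination region at different places: ZNF580, a short gene of 2469 bp, had the enzalutamide region before its start (55640551 to 55640750) and the combination region past its stop (55643851 to 55644050), both within the longer ZNF581. ZNF552 had the same interval, 57813901 to 57814200, in the enzalutamide and the combination list.

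At ZNF582 the enzalutamide region at 56393101 to 56393300 and the OSU-ERb-12 region at 56393051 to 56393250 overlapped, with midpoints 334 and 384 bp inside the start. ZNF582 is a KRAB gene whose promoter is known as a methylation marker in cervical cancer. ZNF470 had a like pair, an enzalutamide region at 56567701 to 56568050 and an OSU-ERb-12 region at 56567751 to 56567950, and ZNF525 had an enzalutamide and an OSU-ERb-12 region at its start that did not overlap. ZNF772 held 1 OSU-ERb-12 and 1 combination region, neither at an end.

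Between lists, 11 of the 26 combination regions in ZNF loci overlapped an enzalutamide region (42.3%, exact 95% interval 23.4 to 63.1), against 50 of 222 in the rest of the chromosome (22.5%), and 4 overlapped an OSU-ERb-12 region (15.4%, against 13.1%). The same overlaps were 7.86% of the 140 enzalutamide regions and 6.15% of the 65 OSU-ERb-12 regions of ZNF loci. In the rest of the chromosome they were 6.31% and 5.89%. In ZNF loci 9 OSU-ERb-12 regions overlapped an enzalutamide region by at least 1 bp. These overlaps were 6.43% of the enzalutamide and 13.8% of the OSU-ERb-12 regions, against 7.20% and 11.6% in the rest of the chromosome. Of the 13 combination regions that overlapped either list, 11 lay at a ZNF gene end (84.6%), and of the 13 that overlapped neither, 4 did (30.8%). All 3 lists share the vehicle group, so these overlaps are given as counts only.

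The partners of KRAB proteins were set beside the ZNF genes, as a list of 30 genes that includes the ZNF gene ZNF274. Enzalutamide regions were present at 23 of the 30 loci (76.7%; 58.3% over all genes) and at an end of 14 (46.7%; 28.3% over all genes). OSU-ERb-12 regions were present at 8 loci (26.7%; 39.2% over all genes) and at an end of 2 (6.67%; 7.88%), and combination regions at 3 loci (10.0%; 21.7% over all genes) and at an end of 1 (3.33%; 5.51%). These genes are long, with a median of 40664 bp against 24130 bp over all genes. With the rest of the protein-coding genes weighted to their lengths, the locus shares were 61.8%, 42.5% and 23.3%, and the gene end shares 29.5%, 7.91% and 5.48%, for enzalutamide, OSU-ERb-12 and the combined treatment. The list has only 30 genes and no interval was computed for its shares, so the differences in either direction are not established. TRIM28, the corepressor itself, lies on chromosome 19 (58544064 to 58550715) beyond the last cluster and held 4 enzalutamide regions, 2 of them at an end, and none of the other lists.

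EHMT1, a histone H3 lysine 9 methyltransferase gene of 217123 bp, led the list with 6 enzalutamide, 5 OSU-ERb-12 and 1 combination region, and the DNA methyltransferase gene DNMT3A had 4, 2 and 2. CHD3, a remodeller of the NuRD complex, and CHAF1A, a histone chaperone subunit, held 4 enzalutamide regions each. SETDB1 held 2 enzalutamide and 2 OSU-ERb-12 regions, UHRF1, which guides maintenance DNA methylation, 1 and 3, and the deacetylase gene HDAC2 had 3 enzalutamide regions and 1 combination region. ZNF274, whose protein recruits SETDB1 to the finger-coding ends of other ZNF genes, had 2 enzalutamide regions at its start, at 58181901 to 58182250 and 58182851 to 58183050, and none of the other lists.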

How the data were processed

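Per the labels' protocols, ATACSeqQC was used to keep nucleosome-free ATAC-seq reads. The submitters' processing notes name FastQC and Trimmomatic, and hg38 as the genome build. How peaks were called, at what threshold, what was compared, which way the listed regions differed and whether replicates were pooled: the sources used here do not give this, and the tag neg in the lists' names is not defined. The deposited lists hold positions of regions and a score that is 0 in every row, so regions could not be ranked and depth per sample is unknown. Each list was matched to its treatment by the prefix it shares with sample titles (WT in the case of OSU-ERb-12, although WT is also the genotype of every sample).

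Genes, strands and promoter sequences came from RefSeq (GRCh38.p14). A gene's locus was its body with 10 kb on either side, and a gene end was the 1 kb on either side of it; an overlap of 1 bp counted. Other chromosome 19 genes were weighted, unless stated, to the ZNF genes over 5 bins of gene length. Of these bins the first and the last also took genes shorter or longer than any ZNF gene. Intervals for shares are exact Clopper-Pearson 95% intervals and for densities exact Poisson intervals; both cover counting only, and neighbouring genes share regions. No test was run, since the lists hold no values per sample. Full androgen and oestrogen response elements were searched as inverted repeats of AGAACA and of GGTCA with 3 bases between the copies. Counting was tested on simulated data (Python 3.11.15, pandas 2.3.3, scipy 1.17.1). Genes were named by a rule: holding regions of all 3 lists, most regions in a list, end regions of more than 1 list, regions shared between lists, and the longest and the shortest gene without a region; exceptions are stated. Members, lists and rules were chosen with earlier results of these data known. Encoded proteins, and genomic sequence outside the promoter windows, were not analysed here.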

Additional observations from a re-analysis of the deposited data

How the results depend on the processing

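Of 115 values recomputed under other settings, 87 stayed within the interval of the value as reported (counts within 1.5 times). The 87 include the values with regions within 1 kb merged, which equalled those reported. Merging can hardly change whether a gene has a region, so these values say nothing about robustness. The share of ZNF loci with a region was below that of the genes it was compared with in all 39 comparisons of lists and settings, by 2.84 to 22.8 points (-2.84 to -22.8). The 39 include the values as reported and those with merged regions. Counting by region midpoint left the ZNF shares unchanged, and all settings draw on the same lists. Their number is therefore no measure of agreement. With gene bodies alone the locus shares were 30.1% (enzalutamide), 13.8% (OSU-ERb-12) and 6.10% (combination), and the differences -9.10 for enzalutamide and -9.67 for the combination; with 50 kb on either side they were 77.2%, 60.6% and 31.3%, and -6.57 and -22.8. With regions of 250 bp or more, which leaves fewer regions, the locus shares were 27.2%, 7.72% and 4.07%, the gene end shares 17.1%, 1.22% and 2.03%, and the locus differences -10.6 (OSU-ERb-12) and -4.67 (combination). Against ZNF genes of other chromosomes the locus differences were -8.66, -6.30 and -6.68. Against the 91 other genes inside cluster spans the enzalutamide differences were -2.84 for loci and 13.6 for gene ends. For OSU-ERb-12 they were -11.0 and 0.350, and for the combination -11.6 and 1.48. With 5 kb at gene ends the differences were -11.6, -13.0 and -6.29, and the OSU-ERb-12 share 15.4%; with 500 bp that share was 4.47%. The gene end differences of OSU-ERb-12 and the combination (-3.06 and 0.801 as reported) are small and change sign with the comparison genes, to 0.442 and -0.670 against ZNF genes of other chromosomes; the cause was not tested. The weighting by neighbours was added after the data were seen, as was keeping the 1106 other genes within the length range of the ZNF genes, which gave locus differences of -18.2, -17.4 and -16.2. With gaps of 250 kb there were 12 clusters. No paired analysis was possible because the lists hold no values per sample; for the same reason no replicate could be left out. Depth per sample is unknown, so what it limits cannot be given.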
